A study of Mus musculus with 2 samples.

Results

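R-loop peaks over the promoters of divergent gene pairs were described in primary neural stem/progenitor cells (NSPCs) of the mouse. A divergent pair is a minus-strand and a plus-strand protein-coding gene whose transcription start sites (TSSs) lie at most 1 kb apart and whose gene bodies point away from each other. A peak was taken as a divergent pair peak when it overlapped the stretch between the starts, held at least 1 of the 2 TSSs and held no transcription end site (TES) of a protein-coding gene. Of 22132 peaks in the deposited list, 174 met this rule (0.786%). They lay at 180 of the 808 divergent pairs annotated in the mm9 genome, since 6 of the peaks touched 2 pairs each.

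The cells came from the frontal brains of C57BL/6 mice at postnatal day 7. They had been cultured with aphidicolin, an inhibitor of replicative DNA polymerases that causes mild replication stress, as the methods state. R-loops were captured by DNA:RNA immunoprecipitation and sequencing (DRIP-seq) with S9.6, an antibody against RNA-DNA hybrids. The 2 samples are the S9.6 immunoprecipitate and the input of the same design, and only the peak list of the S9.6 sample was analysed here. The list holds 1 interval per peak and neither a score nor a read count, so the depth and the spread between replicates are unknown, no difference was tested, and every interval printed is an exact 95% interval (Clopper-Pearson for shares, order statistics for medians) that covers counting error over regions alone.

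An R-loop forms when a nascent transcript pairs again with its DNA template and leaves the other strand single-stranded. Transcripts rich in G make the more stable hybrids, and unmethylated CpG island promoters with an excess of G over C behind the TSS are known as frequent sites. A bidirectional promoter starts transcription to both sides from a single nucleosome-depleted region, is usually a CpG island without a TATA box, and serves many housekeeping genes of DNA repair, mitochondrial function and protein folding.

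The following sequences show what lies between the starts of such pairs, each read on the plus strand of mm9 from the base after the TSS of the minus-strand gene to the base before the TSS of the plus-strand gene. The first 4 lie inside a divergent pair peak, namely those of the widest peak, of the DNA end-processing enzyme Tdp2, of the neural stem cell regulator Nr2e1 and of a short mitochondrial ribosomal promoter. The last, of the recombination gene Rad51c, lies outside any peak. Capitals mark matches on either strand to the ETS core (CCGGAA), the Sp1/KLF box (GGGCGG), the NRF1 core (GCGCATGC) or the cyclic AMP response element (TGACGTCA), and none of these stretches holds an annotated exon.
Pcid2/Cul4a, chr8:13105460-13105620, plus strand: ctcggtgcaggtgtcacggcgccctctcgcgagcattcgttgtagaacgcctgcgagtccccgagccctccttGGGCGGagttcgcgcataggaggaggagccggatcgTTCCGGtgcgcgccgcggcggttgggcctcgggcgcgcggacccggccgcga
Acot13/Tdp2, chr13:24923387-24923547, plus strand: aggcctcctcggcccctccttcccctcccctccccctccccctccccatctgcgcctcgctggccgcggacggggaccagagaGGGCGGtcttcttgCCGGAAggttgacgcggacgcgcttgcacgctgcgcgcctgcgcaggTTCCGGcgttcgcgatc
Nr2e1/Ostm1, chr10:42303439-42303627, plus strand: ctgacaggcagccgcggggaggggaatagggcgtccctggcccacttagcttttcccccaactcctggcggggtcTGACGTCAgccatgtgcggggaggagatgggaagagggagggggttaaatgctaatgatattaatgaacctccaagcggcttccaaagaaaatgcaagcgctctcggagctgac
Mrps18b/Ppp1r10, chr17:36053335-36053378, plus strand: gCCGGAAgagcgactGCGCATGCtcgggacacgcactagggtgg
Rad51c/Tex14, chr11:87218457-87218566, plus strand: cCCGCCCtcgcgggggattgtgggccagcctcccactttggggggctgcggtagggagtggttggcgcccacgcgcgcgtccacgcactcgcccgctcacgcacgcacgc

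The stretch of Acot13/Tdp2 held 2 ETS cores and 1 Sp1/KLF box, and that of Nr2e1/Ostm1 held a single match, to the cyclic AMP response element. The stretch of Rad51c/Tex14, without a peak, held 1 Sp1/KLF box. Its GC content was 75.5% against 72.7% for that of Pcid2/Cul4a, the pair below the widest peak, whereas over the 1 kb centred on each pair the order was reversed, with 56.9% and 70.9%.

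The peak was usually shared by both promoters. Both TSSs lay inside the same peak in 158 of the 174 divergent pair peaks (90.8%, interval 85.5 to 94.7%), and only 16 peaks held 1 TSS of the pair. Without the condition on gene ends, 205 pairs had both starts inside some peak, in each case 1 and the same peak, 18 pairs had 1 start inside and 585 had none. The list therefore held no divergent pair with a separate peak over each start. The starts of all divergent pairs lay a median of 141 bp apart, and the divergent pair peaks had a median width of 2.21 kb. A peak over 1 start would thus mostly hold the other too. The counts cannot tell 1 R-loop over both promoters from separate R-loops. When the starts were less than 200 bp apart, 109 of 112 pairs with a divergent pair peak had both inside (97.3%), against 39 of 48 (81.3%) from 200 to 500 bp and 16 of 20 (80.0%) above 500 bp.

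**Figure D1:**
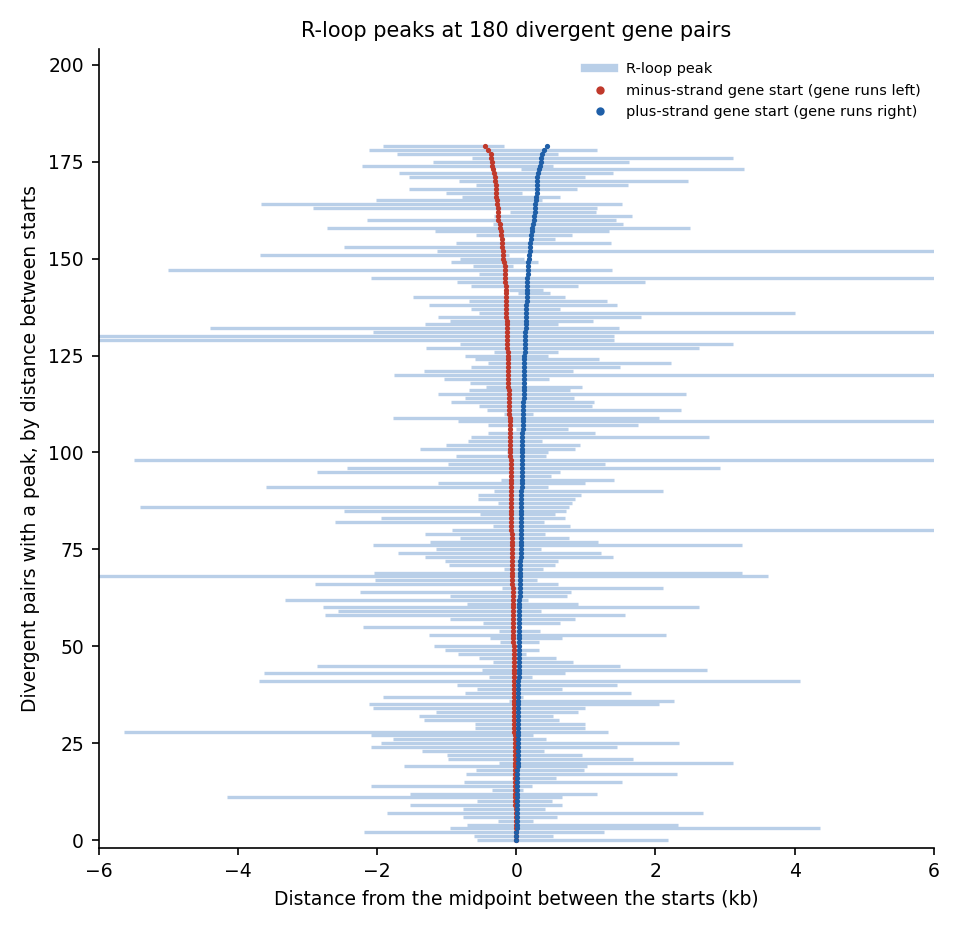
Divergent pair peaks at 180 pairs, 1 line per pair, sorted from the shortest distance between starts at the bottom to the longest at the top. The horizontal axis is the distance from the midpoint between the starts in kb, light lines are peaks, and red and blue points are the starts of the minus-strand and plus-strand genes. Most lines cross both points, and at 10 pairs the peak runs past the plotted range of 6 kb.

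Divergent pair peaks had a median width of 2.21 kb (quartiles 1.41 and 3.29 kb, range 0.349 to 19.4 kb). This was wider than the median of all 22132 peaks (1.32 kb) and close to the 2.35 kb of the 2159 other peaks that held a protein-coding TSS but no TES, whose interval of 2.25 to 2.42 kb overlapped that of the divergent pair peaks (1.98 to 2.41 kb). The 542 peaks with both a TSS and a TES inside were wider, with a median of 6.91 kb. Peaks shared by a pair of promoters were thus not wider than peaks at other gene starts.

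The widest divergent pair peak, chr8:13100053-13119400, spanned 19.4 kb over the starts of Pcid2, a component of a messenger RNA export complex, and Cul4a, the scaffold of a ubiquitin ligase. It reached 5.41 kb into Pcid2 and 13.8 kb into Cul4a. The peak over Spry4, an inhibitor of growth factor signalling, spanned 15.6 kb and touched 2 pairs, because the plus-strand genes Arhgap26 and 9630014M24Rik share a start there. It reached 14.1 kb into Spry4 and 1.27 kb to the other side, the opposite balance. The next widest were at Inca1/Kif1c (11.3 kb), Ccdc92/Zfp664 (10.4 kb) and Tada3/Arpc4 (10.3 kb). All 3 ran further into the plus-strand gene, reaching 9.92 kb into the kinesin gene Kif1c, 8.16 kb into the zinc finger gene Zfp664 and 8.44 kb into Arpc4, which encodes a subunit of the actin-nucleating Arp2/3 complex.

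The narrowest divergent pair peaks stayed close to the starts. The peak between Ntrk3, the receptor of neurotrophin-3, and Gm9885 was 0.349 kb wide and held the start of Gm9885 only. That of Rbbp4, a histone-binding chromatin protein, and Zbtb8os was 0.383 kb wide and held the Rbbp4 start only. The start held lay near the peak edge in each case. Gm9885 starts at 85723716 in a peak that begins at 85723711, and Rbbp4 at 129012614 in a peak that ends at 129012619. Peaks of 0.420 kb at 1200016B10Rik/1190005F20Rik and of 0.442 kb at Sdha/Ccdc127, where Sdha encodes the catalytic subunit of succinate dehydrogenase, still held both starts. The peak of 0.461 kb at Rfxank/2310045N01Rik held only the start of 2310045N01Rik.

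The distance between the starts did not separate pairs with a peak from pairs without. Pairs with a divergent pair peak had a median distance of 150.5 bp (n = 180, interval 130 to 179 bp) and pairs without a peak 141 bp (n = 583, interval 125 to 153 bp). A peak was found at 22.3% of all pairs (interval 19.5 to 25.3%), and at between 20.4% and 25.5% of pairs in each of 6 classes of distance. The shortest spacing below a peak was 3 bp at Slc7a6os/Prmt7, followed by 4 bp at Bag5/2810002N01Rik and 5 bp at Cct5/Fam173b. Prmt7 encodes an arginine methyltransferase, Bag5 an Hsp70 cochaperone and Cct5 a subunit of the cytosolic chaperonin. The longest spacing with both starts in a peak was 798 bp at Wrn/Purg, where Wrn encodes a RecQ helicase, followed by 730.0 bp at Nlgn2/1810027O10Rik, where Nlgn2 encodes an adhesion protein of inhibitory synapses, and 713 bp at Cbln3/Khnyn.

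In pairs with both starts inside, the reach into the 2 genes often differed. Over 164 such pairs the median reach into the gene covered further was 1.39 kb and into the other gene 0.568 kb. The larger reach was a median of 2.26 times the smaller, and in 92 of 164 pairs (56.1%) it was at least 2 times as far. The ratio is at least 1 by construction. No baseline was computed for starts placed at random in a peak, so these values do not show a lopsided extension beyond that. The peak ran at least 500 bp into both genes in 99 pairs, at least 1000 bp in 35 and at least 2000 bp in 7. The side covered further followed none of the 3 features examined. The peak reached further into the gene with the higher GC skew, defined as (G - C)/(G + C) over the first 1 kb of the coding strand, in 79 of 164 pairs (48.2%, interval 40.3 to 56.1%), further into the longer gene in 82 (50.0%), and further into the plus-strand gene in 84 (51.2%). Among 63 pairs whose skews differed by 0.1 or more, 32 peaks (50.8%) reached further into the gene with the higher skew.

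The 16 pairs with a single start inside were also divided. In 9 of them (56.3%) the start inside belonged to the gene with the higher skew over the first 1 kb. The share was 37.5% with the skew over the first 500 bp and 68.8% over the first 2 kb. The peak at Mphosph10/Mcee (chr7:71536538-71537460) held the start of Mphosph10, a ribosomal RNA processing factor with a skew of 0.159, and left out that of the metabolic enzyme gene Mcee with -0.0155. The peak at Atp5c1/Kin likewise held the start of Atp5c1, the gamma subunit of ATP synthase (0.124), and left out that of Kin (-0.0240). The starts there are 83 bp apart. Both starts left out lay near the peak edge. Mcee starts at 71537531, and Kin starts at 10002220 beside a peak that ends at 10002170. A small shift of an edge would change which starts count as inside. The opposite order was seen at Pld3/2310022A10Rik, where the start inside was that of the phospholipase family gene Pld3 with a skew of -0.179. It was also seen at Csnk2b/Gpank1, where the start inside was that of Csnk2b, the regulatory subunit of casein kinase 2. Csnk2b had a skew of -0.0769 against 0.123 for Gpank1. Their starts lie 899 bp apart with 3 restriction sites between them, and the peak also held another protein-coding TSS. A site of the enzymes used to fragment the DNA lay between the starts in 6 of these 16 pairs.

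**Figure D2:**
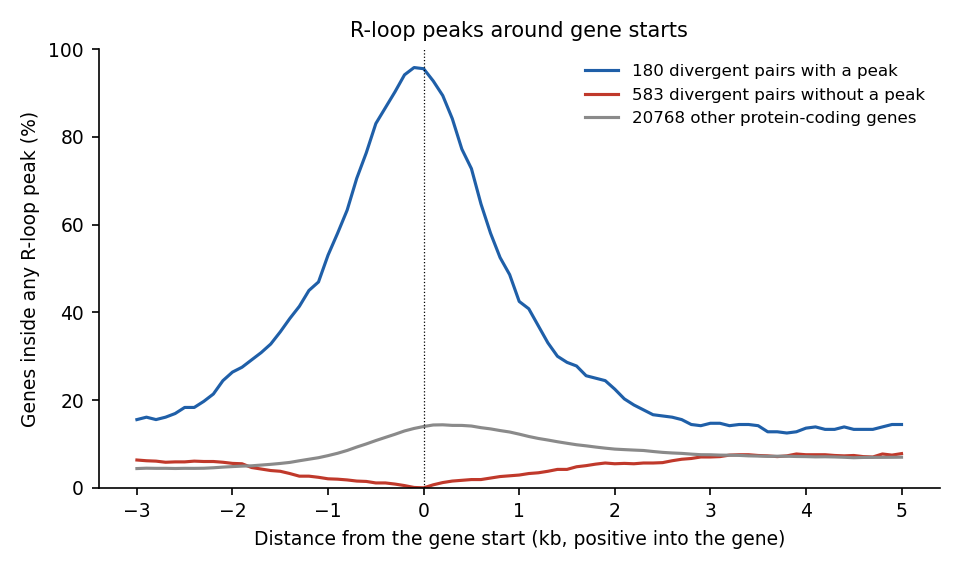
Share of genes inside any R-loop peak by distance from the gene start, in kb and positive into the gene, for genes of the 180 divergent pairs with a peak, genes of the 583 pairs without a peak and the 20768 other protein-coding genes. In pairs with a peak, 95.6% of genes are covered at the start, 42.5% at 1 kb into the gene and 53.1% at 1 kb to the other side, where the partner gene lies. The share is 14.7% at 3 kb into the gene, where the pairs without a peak have 7.03% and other genes 7.54%. The values at 0 for the first 2 groups follow from how the groups were chosen.

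Genes of divergent pairs had their start inside an R-loop peak more often than other genes. Of the 1599 genes in divergent pairs, 421 had their start inside a peak of any kind (26.3%, interval 24.2 to 28.6%), against 2904 of 20768 other protein-coding genes (14.0%, interval 13.5 to 14.5%) and 14.9% of all protein-coding genes. The difference was 12.4 percentage points. Since the 2 starts of a pair usually share a peak, the genes of a pair are not separate observations. A peak at 1 start mostly counts for the partner start too, which can raise the share itself. Other starts had no divergent protein-coding partner within 1 kb. How much of the difference comes from this counting was not tested. Divergent starts were richer in GC than other starts, with 49.2% and 27.7% at 60% GC or more, and the difference was 4.90 percentage points when genes were compared within 5 classes of GC content of the 1 kb centred on the start. It was 6.10 points within classes of GC content and restriction fragment length together.

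The share rose with GC content in both groups. Below 50% GC, 2 of 81 divergent starts (2.47%) and 1.55% of other starts lay in a peak. From 50 to 55% GC the shares were 19.1% of 236 divergent starts and 9.14% of other starts, the widest relative gap of the 5 classes. From 55 to 60% they were 20.6% and 18.6%, and from 60 to 65% they were 29.7% and 25.5%. At 65% GC or more, 131 of 312 divergent starts (42.0%, interval 36.5 to 47.7%) and 34.2% of other starts (interval 32.4 to 36.0%) were inside a peak. Divergent starts thus had the higher share in each class, with a peak shared by a pair counted for both starts. The intervals count the 2 starts of a pair as separate observations and are too narrow for divergent starts. Whether they overlap is therefore not read as a result.

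**Figure D3:**
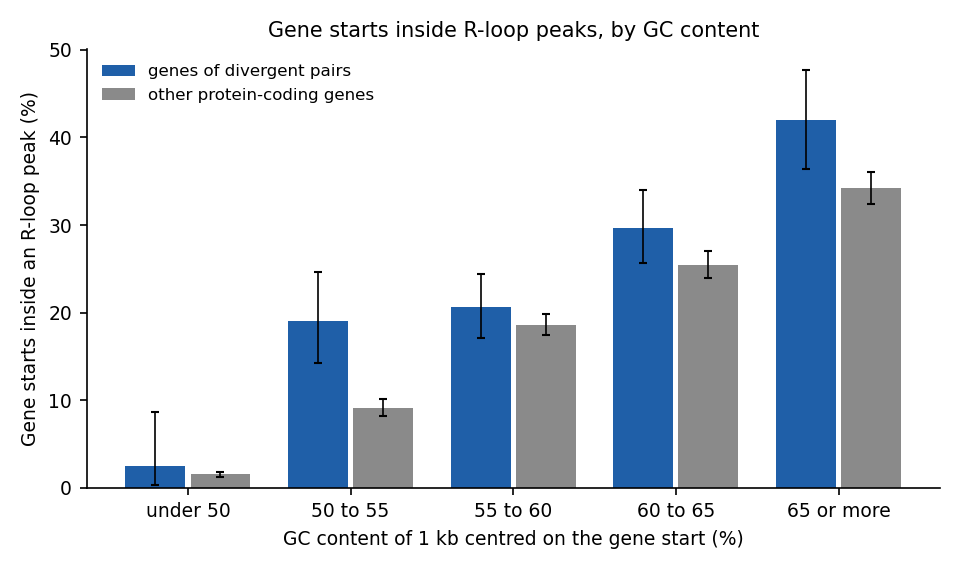
Share of gene starts inside an R-loop peak, in percent, in 5 classes of GC content of the 1 kb centred on the start, for genes of divergent pairs and other protein-coding genes. Bars are shares and error bars exact 95% Clopper-Pearson intervals, which count the starts of a pair as separate and are too narrow for divergent starts. The share of divergent starts rises from 2.47% in the lowest class to 42.0% in the highest and lies above that of other starts in each class.

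Among divergent pairs themselves, those with a peak were richer in GC. The 1 kb centred on the pair had a median GC content of 62.8% (interval 61.3 to 63.4%) in the 180 pairs with a divergent pair peak and of 59.4% (interval 58.7 to 60%) in the 583 pairs without a peak. A peak was present at 1 of 37 pairs below 50% GC (2.70%), 11.5% of pairs from 50 to 55%, 15.8% from 55 to 60%, 26.0% from 60 to 65% and 63 of 170 pairs at 65% or more (37.1%). The median ratio of observed to expected CpG was 0.810 with a peak and 0.767 without, with intervals that overlapped slightly (0.776 to 0.837 and 0.752 to 0.779).

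The GC-richest promoter under a peak was that of Baz2b/March7 with 75.9%. Baz2b encodes a bromodomain protein and March7 a membrane-associated ubiquitin ligase. Its peak (chr2:60045984-60050259) ran 1.91 kb into Baz2b and 2.32 kb into March7. Hook3/Rnf170 (74.2%) and Wrn/Purg (74.1%) followed. At the low end were Gm10655/Tle3 (52.5%), Uqcr10/Zmat5 (51.5%) and Csnk2b/Gpank1 (47.9%). Of these, the peak over Tle3, a Groucho family corepressor, was 7.57 kb wide and ran 6.64 kb into the Tle3 gene, whereas that at Uqcr10, a subunit of respiratory complex III, was 0.571 kb wide.

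The GC skew changed sign between the starts in pairs with and without a peak. On the plus strand, the 100 bp windows of pairs with a peak had a skew of -0.0830 from 200 to 100 bp left of the midpoint and of 0.0985 from 100 to 200 bp right of it, so that over all pairs together the DNA behind the starts held more G than C on the coding strand of either gene. In pairs without a peak the same windows had -0.0811 and 0.0819. From 300 to 400 bp right of the midpoint, a window picked for its wide gap, the skew was 0.103 with and 0.0491 without a peak. In the mirror window on the minus-strand side it was -0.0572 and -0.0483, and from 800 to 900 bp right of the midpoint the order was reversed, with 0.0231 and 0.0398. Per gene, the median skew of the first 1 kb was 0.0768 (n = 360, interval 0.0627 to 0.0851) in pairs with a peak and 0.0507 (n = 1166, interval 0.0438 to 0.0556) in pairs without. Runs of at least 4 G on the coding strand numbered a median of 6 per kb with and 4 without a peak.

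**Figure D4:**
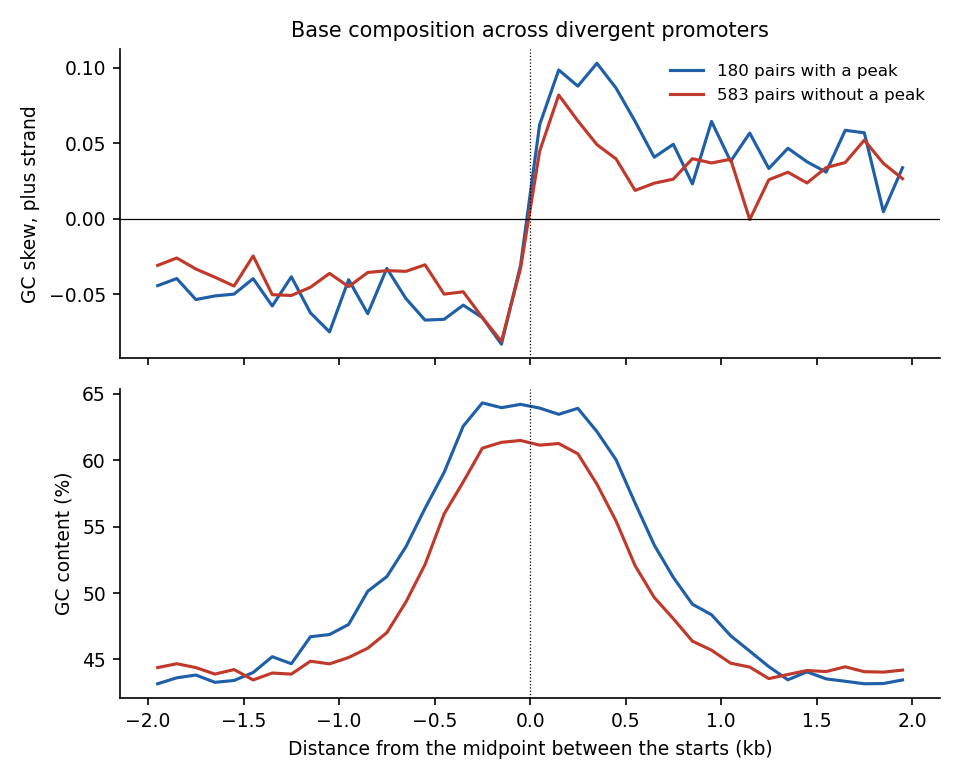
GC skew on the plus strand (upper panel) and GC content in percent (lower panel) in windows of 100 bp across divergent promoters, by distance from the midpoint between the starts in kb, for 180 pairs with a peak and 583 pairs without. The skew turns from negative to positive at the midpoint in both groups and peaks at 0.103 with and 0.0819 without a peak, and the GC content next to the midpoint is 63.9% with and 61.1% without a peak.

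Positive skew in both genes was found in 106 of 180 pairs with a peak (58.9%, interval 51.3 to 66.2%) and 307 of 583 pairs without (52.7%, interval 48.5 to 56.8%), and in neither gene in 8 and 50 pairs. The share of pairs with a peak rose from 15.0% where the mean skew of the 2 genes was negative to 28.1% where it was 0.1 or more. Within classes of GC content the median of the mean skew was higher with a peak from 55% GC upward. It was 0.0670 with and 0.0534 without a peak from 55 to 60%. From 60 to 65% it was 0.0627 and 0.0344, and at 65% or more 0.0621 and 0.0570. From 50 to 55% the order was reversed, with 0.0606 in 12 pairs with a peak and 0.0731 without. Below 50% only 1 pair had a peak.

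G-rich stretches behind the starts are shown for 4 peaks, each as the 60 bases inside the peak and outside any annotated exon in which G outnumbers C the most when read along the coding strand of the named gene. They were picked as extremes, and capitals mark runs of at least 3 G. Coordinates are of mm9, and each sequence is written 5′ to 3′ on the strand given.
Cul4a, chr8:13113152-13113211, plus strand: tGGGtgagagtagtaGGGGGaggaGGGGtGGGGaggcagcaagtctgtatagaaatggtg
Khnyn, chr14:56504120-56504179, plus strand: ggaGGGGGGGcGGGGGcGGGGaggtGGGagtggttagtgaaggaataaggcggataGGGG
Atm, chr9:53344608-53344667, minus strand: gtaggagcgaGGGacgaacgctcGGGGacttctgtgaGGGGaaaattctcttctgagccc
Npat, chr9:53345330-53345389, plus strand: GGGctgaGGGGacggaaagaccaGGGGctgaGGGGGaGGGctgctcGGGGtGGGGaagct
Trappc4, chr9:44215100-44215159, minus strand: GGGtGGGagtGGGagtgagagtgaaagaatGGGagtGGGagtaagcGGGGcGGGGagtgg
Rps25, chr9:44215849-44215908, plus strand: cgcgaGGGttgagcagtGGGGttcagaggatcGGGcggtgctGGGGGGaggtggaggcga

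The stretch of Cul4a lay 7531 bp behind its start, inside the longer arm of the widest peak, and had 31 G and 3 C. That of Khnyn had 38 G and 3 C and lay 314 bp behind the start. At Atm/Npat the stretches lay 178 bp behind each start, with 22 G and 13 C in the Atm intron and 34 G and 9 C in the Npat intron. At Trappc4/Rps25, a vesicle tethering factor and a ribosomal protein, the picked stretches in both directions were strongly G-rich, with 36 G and 2 C in Trappc4 and 34 G and 8 C in Rps25. The peak there (chr9:44214856-44216140) reached 776 bp into Trappc4 and 344 bp into Rps25.

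Pairs with and without a peak carried much the same promoter motifs, counted on both strands of the 300 bp centred on each pair. The Sp1/KLF box was present in 68.9% of pairs with and 67.2% of pairs without a peak, against 44.1% of 20768 other gene starts. The ETS core was present in 43.3% and 40.5%, against 16.9% of other starts. CCAAT boxes (CCAAT) were present in 39.4% and 44.1%, NRF1 cores in 7.22% and 6.69%, the E-box (CACGTG) in 9.44% and 9.43%, the cyclic AMP response element in 4.44% and 4.29%, and the YY1 core (AAGATGGCG) in 3.89% and 4.80%. For these 7 motifs the intervals of pairs with and without a peak overlapped. All 7 were less frequent at other starts, where the 300 bp were centred on the start. The shares there were 2.86% for NRF1, 2.10% for the cyclic AMP response element and 2.05% for YY1. For CCAAT and the E-box the gap was smaller, with 35.3% and 7.05% of other starts. Divergent and other starts were not matched for GC content in this comparison.

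The TATA box (TATAAA) was rare under the peaks. It was found in 3 of 180 pairs with a peak (1.67%, interval 0.345 to 4.79%), 31 of 583 pairs without (5.32%, interval 3.64 to 7.46%) and 11.3% of other starts. Of the 31 pairs without a peak and with a TATA box, 10 held a clustered histone gene. All 14 divergent pairs with a clustered histone gene lacked a peak, against a peak at 22.3% of all pairs and at 15.8% of pairs with 55 to 60% GC. Their GC content had a median of 59.4% (range 40.8 to 61.3%), and 8 of the 14 lay on restriction fragments shorter than 2 kb. Histone genes of the clusters are short, intronless and expressed in S phase, and 24 of the 27 in these pairs were shorter than 3 kb. Clustered genes of the same histone type are near-identical copies of each other. The study's signal tracks were made from uniquely mapped reads, and whether peak calling used the same reads is not given in the sources used here. The part of mapping was not tested. With only 14 pairs, no claim is made that histone pairs differ from all pairs.

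DNA repair genes were well represented among divergent pairs, and their promoters were divided. Of 103 annotated genes on a list of repair genes, 29 (28.2%) lay in 30 divergent pairs, against 7.15% of all protein-coding genes. Of these pairs, 7 (23.3%) had a divergent pair peak, close to the 22.3% of all pairs. The peak at Atm/Npat (chr9:53344342-53345893) was 1.55 kb wide and reached 504 bp into Atm, the kinase that signals double-strand breaks, and 742 bp into Npat, a coactivator of histone gene transcription. At Dak/Ddb1 it was 7.04 kb wide and ran 6.05 kb into Ddb1, the adaptor of damage-recognising ubiquitin ligases. Xpc/Lsm3 (2.44 kb), Acot13/Tdp2 (2.26 kb), Neil1/Gm16493 (2.02 kb) and Polk/Col4a3bp (0.909 kb) also had one, and all 7 peaks held both starts. Xpc recognises damage for nucleotide excision repair, Neil1 is a base excision glycosylase and Polk a translesion polymerase.

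No peak lay between the starts of 21 repair pairs, among them Palb2/Dctn5, Rad51c/Tex14, Rad54l/Pomgnt1, Xrcc3/Zfyve21 and Brca1/Nbr1 of homologous recombination, Lig4/Abhd13 of end joining and Hscb/Chek2 of the checkpoint. At Brca1/Nbr1 the GC content was 53.1%, and at Rad17/Taf9, which also lacked a peak, it was 69.2%. Of these 21 pairs, 6 lay on restriction fragments shorter than 1 kb, as did none of the 7 with a peak. At Aimp2/Pms2 and Osgep/Apex1 the peak also held a gene end, so these pairs are in neither group.

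DNA replication genes showed a peak at 1 of 15 divergent pairs (6.67%), against 22.3% of all pairs. With so few pairs, no claim is made that the list differs from all pairs. The pair with a peak was Orc3/Rars2, with a subunit of the origin recognition complex and a mitochondrial arginyl-tRNA synthetase. Its peak of 0.495 kb held both starts, which lie 13 bp apart. The 14 pairs without a peak included Prpf38a/Orc1 and Vps35/Orc6 of origin recognition, Mcm4/Prkdc and Trmt6/Mcm8 of the helicase family, Rpa1/Smyd4 of single-strand binding and Prim2/1700001G17Rik of primase. Their fragments had a median length of 1.36 kb, and 4 were shorter than 1 kb. Over all 64 annotated genes of the list, paired or not, 7 starts lay in a peak (10.9%), against 14.9% of all protein-coding genes.

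Of 5 pairs with a factor known to process R-loops, 2 had a peak, too few to set against the 22.3% of all pairs. Ddx5, an RNA helicase that unwinds RNA-DNA hybrids, shared a 4.33 kb peak with Ccdc45 (chr11:106646902-106651227) that ran 3.60 kb into Ddx5 and 0.662 kb into Ccdc45. Wrn shared one of 3.29 kb with Purg. The pairs of Fancd2, Brca1 and the nuclear scaffold proteins Safb2/Safb had none. The only neural progenitor gene of the list in a divergent pair was Nr2e1, which encodes the orphan nuclear receptor that maintains neural stem cells. Its peak (chr10:42301762-42305586) was 3.83 kb wide and reached 1.68 kb into Nr2e1 and 1.96 kb into Ostm1, the neighbour that encodes a lysosomal chloride transporter subunit.

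The remaining lists were taken by gene symbol. Chaperone genes had a peak at 7 of 17 pairs (41.2%), among them Cct5/Fam173b (3.45 kb), Dnajb4/Fubp1 (3.42 kb), Bag5/2810002N01Rik (1.14 kb) and Bag1/Chmp5 (1.51 kb), and none at Bag4/Lsm1 or 1700021C14Rik/Cct3. Genes of the respiratory chain had one at 6 of 22 pairs (27.3%), with a peak of 6.96 kb at Sdhd/Timm8b and of 2.78 kb at Uqcrh/Lrrc41 and none at Cox4nb/Cox4i1. Mitochondrial ribosomal protein genes had one at 3 of 16 pairs, among them Mrpl40/Hira (5.88 kb), which reached 4.27 kb into the ribosomal gene and 1.34 kb into the histone chaperone gene Hira. Zinc finger genes had one at 6 of 17 pairs, tRNA synthetase genes at 3 of 7, cytoplasmic ribosomal protein genes at 2 of 8 and proteasome genes at 1 of 7, that at Psme2/Rnf31. Not every other pair lacked a peak, since a peak that also held a gene end was not counted. Pairs without any peak between the starts numbered 4 for cytoplasmic ribosomal proteins, 13 for the respiratory chain and 10 for zinc finger genes. These lists hold few pairs, and their shares are read against the 22.3% of all pairs with no claim that any list differs from it.

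Several peaks joined more than 1 pair through a shared start. The peak at Zbtb6/Rabgap1 (chr2:37295860-37299352) also held the start of Zbtb26, on the same strand as Zbtb6, and both zinc finger genes run opposite to the GTPase-activating gene Rabgap1. The peak of 3.03 kb at Mrto4, a ribosome assembly factor, held the starts of C230096C10Rik and of the ubiquitin ligase gene Ubr4 on the other side. At Wfdc3/Dnttip1, Ccdc92/Zfp664 and Elavl1/Ccl25 the second pair came from 2 annotated genes of the same symbol. A further 4 divergent pair peaks held the start of a gene annotated as non-coding or as a pseudogene, among them Mir1894 at Mrps18b/Ppp1r10. At Dpm1/Mocs3 and Xpc/Lsm3 that annotation had the same symbol as a gene of the pair.

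Genes of divergent pairs with a peak often held more R-loop peaks further on. Of the 354 genes in these pairs, 181 (51.1%, interval 45.8 to 56.5%) held at least 1 other peak, against 470 of 1156 genes (40.7%, interval 37.8 to 43.6%) in pairs without a peak. The median gene length was 22.7 kb with a peak (interval 18.9 to 26.5 kb) and 18.5 kb without (interval 17.0 to 19.7 kb). The rule itself takes short genes out of the group with a peak, since a peak that also holds a gene end is left out, and the 43 pairs left out for this had a median gene length of 5.85 kb. The gaps in length and in further peaks are in part set by the rule. Cul4a and Kif1c each had 2 further peaks beyond their wide promoter peaks, and Xpc had 5. On chromosome 11 a divergent pair peak was found at 20 of 67 pairs (29.9%, interval 19.3 to 42.3%, which holds the 22.3% of all pairs), and on chromosome X at 0 of 19 (interval 0 to 17.6%).

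The restriction digest moved with the presence of a peak. For DRIP-seq the DNA was cut with EcoRI, HindIII, BsrGI, SspI and XbaI, and the antibody recovers whole fragments. The fragment that held a pair had a median length of 2.47 kb (interval 2.26 to 2.60 kb) in pairs with a divergent pair peak and 1.65 kb (interval 1.57 to 1.74 kb) in pairs without. The length was taken between the nearest sites outside the starts, and sites between the starts were ignored. It spans more than 1 fragment in the 6.67% of pairs with a peak and 15.8% without that had such a site. A peak was present at 3 of 98 pairs on fragments shorter than 1 kb (3.06%), 15.0% from 1 to 2 kb, 35.9% from 2 to 4 kb and 10 of 34 at 4 kb or more (29.4%). The share rose with GC content within each length, from 8.89% below to 21.0% at or above 60% GC for fragments of 1 to 2 kb, and from 25.4% to 43.2% for 2 to 4 kb. The part of fragment recovery, mapping or transcription in these differences was not tested.

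**Figure D5:**
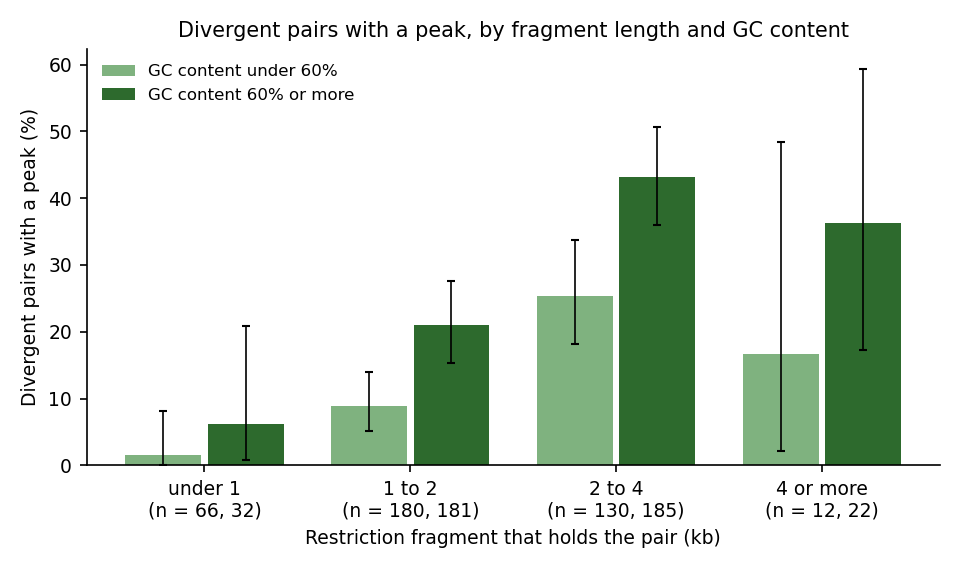
Share of divergent pairs with a divergent pair peak, in percent, by the length in kb of the restriction fragment that holds the pair, for pairs below and at or above 60% GC in the central 1 kb. Sites between the starts are ignored in the length. Bars are shares, error bars exact 95% Clopper-Pearson intervals, and n gives the pairs in each bar. Shares rise with fragment length up to 4 kb in both GC groups, to 25.4% and 43.2%, and the bars above 4 kb rest on 12 and 22 pairs.

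Fragment ends also met peak edges. Of the 348 edges of divergent pair peaks, 138 (39.7%, interval 34.5 to 45.0%) lay within 100 bp of a restriction site, against 35.8% of edges of other start-only peaks and 28.3% of all peak edges. In 158 pairs both starts lay in the peak and on the same fragment. The peak covered a median of 87.8% of that fragment (quartiles 67.5 and 98.9%). With an overrun of 100 bp allowed, it stayed within the fragment in 106 pairs (67.1%). Only 76 of all 174 divergent pair peaks (43.7%) had no restriction site inside. Where a site lay between the starts, 6 of 12 pairs with a peak had both starts inside, and where none did, 158 of 168. A site lay between the starts in 6.67% of pairs with a peak and in 15.8% of pairs without.

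The comparison of divergent with other gene starts held within classes of fragment length. On fragments of 1 to 2 kb, 19.9% of 734 divergent starts and 11.2% of other starts lay in a peak, and on fragments of 2 to 4 kb, 44.2% of 523 divergent starts (interval 39.9 to 48.5%) and 25.4% of other starts (interval 24.3 to 26.5%). On fragments shorter than 1 kb the shares were 5.59% and 2.62%. The interval of divergent starts again counts the starts of a pair as separate observations, and a shared peak again counts for both. Over 4 classes of fragment length the difference was 11.1 percentage points, near the 12.4 points of all starts together.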

How the data were processed

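The 2 samples were the S9.6 immunoprecipitate and the input of DRIP-seq in NSPCs. According to the study's methods and processing notes, the authors trimmed reads with Trim Galore 0.6.6, aligned them to mm9, discarded duplicate reads and used a caller based on a Hidden Markov Model. The deposited list holds other values than expression, namely the start and end of each peak in base pairs; each library pooled repeat DRIP reactions of a biological replicate, and how the biological replicates were merged for peak calling is not given in the sources used here. Depth is unknown and replicate error could not be given.

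Peaks were compared with the mm9 sequence and the genes of GENCODE M1, which uses the same build (37273 genes, 22367 protein-coding). An overlap was counted from 1 bp. GC content and CpG ratio were taken over 1 kb centred on a start or pair, GC skew over the first 1 kb of each gene, motifs over 300 bp, and restriction sites of 5 enzymes from the sequence. Of the genes in pairs, 17 belonged to more than 1 pair, and each such pair was counted as a pair of its own. A promoter can therefore count more than 1 time. Examples are Rad17/Taf9 among the repair pairs, Hspa14/Cdnf among the chaperone pairs and Ccdc92/Zfp664 among the zinc finger pairs. Pairs whose peak also held a gene end (43) or held neither start (2) were left out of the comparison of pairs with and without a peak. Every comparison is a description without a test. Classification was tested on simulated data.

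The members, the gene lists and the alternatives were chosen with earlier results of these data known. Named pairs are those with the 5 widest and narrowest peaks, the 3 shortest and longest distances, the largest skew differences among peaks with 1 start inside, the 3 highest and lowest GC contents, peaks touching more than 1 pair, pairs on the lists of DNA repair, replication, R-loop processing and neural progenitor genes, and up to 2 pairs with and 2 without a peak on each other list. Bag1/Chmp5, Mir1894 and the genes named for further peaks were chosen after their values were seen. Values of some pairs that this rule names are not reported here. Scripts ran under Python 3.11.15 with scipy 1.17.1 and numpy 2.4.6, and plots were drawn with matplotlib 3.10.9.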

Additional observations from a re-analysis of the deposited data

How the results depend on the processing

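Of 56 alternatives for 10 results, 50 stayed within the reported interval, or within 1.5 times the reported count, and 6 moved. With peaks that also hold a gene end kept, 27.6% of divergent pairs had a peak in place of 22.3%, and the median width was 2.58 in place of 2.21 kb. The share of divergent pair peaks with both starts inside was 80.6% with starts up to 2 kb apart and 94.8% among peaks of at least 1 kb. The difference in the share of starts inside a peak, divergent minus other genes, was 4.90 percentage points within 5 classes of GC content and 6.10 within classes of GC content and fragment length together, both alternatives chosen after seeing the data. The cause was not tested. The difference in median distance was 9.5 bp as reported and -0.5 bp for pairs with both starts inside, and 21 of 22 alternatives of a difference had the sign reported.

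No paired analysis was possible because a single peak list was analysed. Depth and scores were not given with the peaks, so weak R-loops below the caller's threshold cannot be told apart from none. Expression of the paired genes was not used here.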
